A study of Mus musculus with 36 samples.

Results

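The genes examined here make, move and break down dopamine: Th, Ddc, Gch1, Slc6a3, Slc18a2, Maoa and Maob. They were read from every probe set that the array's annotation gives to exactly 1 of these symbols, which made 7 genes and 10 probe sets out of 18193 genes and 45037 probe sets other than controls. The 36 arrays came from male C57B1/6J mice of 20 to 26 g tested for conditioned place preference, a procedure that pairs a drug with a compartment the animal tends to avoid. Modafinil, a drug for wakefulness that binds the dopamine transporter, was injected on the drug days within days 3 to 10, at a dose of 65 mg per kg. Vehicle mice had saline on those days, and every mouse of either group had saline on the days between, in its preferred compartment. The mice were killed on day 11, when the test had ended and 24 h had passed since the last injection, and punches 1 mm wide were cut from slices 100 µm thick. The groups were modafinil with 5 arrays of ventral tegmental area (VTA), 5 of nucleus accumbens (NAC) and 8 of prefrontal cortex (PFC), and vehicle with the same numbers. No genotype other than the strain, and no age, was given in the labels. RNA from 2 pieces of tissue was pooled where its integrity number was above 7, and the labels do not say whether each array is a separate mouse, so p-values measure the spread between these arrays.

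Dopamine is made from tyrosine in 2 enzymatic steps, loaded into vesicles, released, taken back up by the transporter of the cell membrane and broken down at the outer membrane of mitochondria. The cell bodies that do this for the reward pathway lie in the VTA, and their axons end in NAC and PFC. Messenger RNA stays mostly in the cell bodies, and the monoamine oxidases are also made by many cells that hold no dopamine. A punch is whole tissue. Fewer dopamine neurons, more neighbouring tissue in the punch and less messenger RNA per neuron cannot be told apart in any value given here.

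Promoters of the members are shown to describe the genes, and their part in any difference between arrays was not tested. Promoter sequences from RefSeq (GRCm38.p6) were found for Th, Ddc, Gch1, Slc6a3, Slc18a2 and Maoa. In each window, from 250 bases before the start of transcription to 10 bases after it, 4 motifs were searched on both strands. They were the cyclic AMP response element TGACGTCA, the NBRE element AAAGGTCA to which Nr4a2 and its relatives bind, the E-box CACGTG and the GC box GGGCGG. Capitals mark the cyclic AMP response element in Th at chr7:142899986-142900245 (minus strand) and in Slc18a2 at chr19:59260628-59260887 (plus strand).
Th: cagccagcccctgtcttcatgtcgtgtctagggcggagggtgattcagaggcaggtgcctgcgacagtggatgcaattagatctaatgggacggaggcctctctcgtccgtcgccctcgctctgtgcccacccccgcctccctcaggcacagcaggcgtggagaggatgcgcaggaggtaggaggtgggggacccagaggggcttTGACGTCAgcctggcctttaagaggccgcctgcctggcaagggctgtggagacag
Slc18a2: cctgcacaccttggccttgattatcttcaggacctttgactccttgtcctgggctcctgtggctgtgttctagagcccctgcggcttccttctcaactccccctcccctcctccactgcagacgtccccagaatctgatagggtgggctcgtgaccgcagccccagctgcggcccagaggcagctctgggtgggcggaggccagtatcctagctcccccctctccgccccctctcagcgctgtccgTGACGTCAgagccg
Counted from the start of transcription, the element begins at position −45 in Th, and in Slc18a2 it begins at −4 and runs across the start. It was present in 1.67% of 32851 promoter windows of the same length. The upstream start of Ddc, at chr11:11898135-11898394 (minus strand), holds the NBRE element, printed in capitals as it reads on this strand.
Ddc: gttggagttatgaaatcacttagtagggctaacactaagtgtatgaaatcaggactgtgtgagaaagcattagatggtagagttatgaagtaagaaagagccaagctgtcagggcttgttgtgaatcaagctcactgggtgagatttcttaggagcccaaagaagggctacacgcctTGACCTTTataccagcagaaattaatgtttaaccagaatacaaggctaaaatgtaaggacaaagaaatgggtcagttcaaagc
The NBRE element was present in 1.39% of the windows, and the second RefSeq start of Ddc held none of the 4 motifs. The 1 Slc6a3 window found belongs to a start inside the gene span of chr13:73536128-73578672, and the bases before its outer start were not searched. This window, at chr13:73536497-73536756 (plus strand), holds an E-box that begins at position −197, and neither of the elements above.
Slc6a3: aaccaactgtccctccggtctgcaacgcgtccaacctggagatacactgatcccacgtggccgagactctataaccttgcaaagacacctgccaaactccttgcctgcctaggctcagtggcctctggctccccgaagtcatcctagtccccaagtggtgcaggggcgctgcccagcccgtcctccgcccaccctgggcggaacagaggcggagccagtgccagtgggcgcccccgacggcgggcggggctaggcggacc
E-boxes were present in 6.34% of windows. GC boxes, present in 33.4% of windows, were found in Th, Gch1, Slc6a3, Slc18a2 and Maoa. No motif overlapped another within these windows. A match describes the letters of a window and does not show that a factor binds there.

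Values are the authors' log2 expression values from RMA, which corrects the background, normalizes and summarizes the probes of a probe set. The median over all probe sets lay between 6.76 and 6.81 in VTA arrays, 6.79 and 6.90 in NAC arrays and 7.2 and 7.27 in PFC arrays, so PFC levels were compared with the others after quantile normalization of all arrays together. Each comparison tested the 27022 probe sets at or above the 40th percentile of mean expression among its own arrays. A probe set passed at an adjusted p below 0.05 (limma, Benjamini-Hochberg). Precision is limited by how many arrays there were.

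In vehicle mice the genes for dopamine synthesis and transport had far lower levels in NAC and PFC than in VTA, while the monoamine oxidase genes differed less by their main probe sets. The dopamine neuron identity list holds transcription factors, receptors and the synuclein gene Sncg, chosen to mark these neurons apart from the members. Its mean level was 5.46 to 5.80 in vehicle NAC arrays and 7.28 to 8.27 in vehicle VTA arrays, and the groups did not overlap. Its gene Nr4a2 was no lower in vehicle NAC (9.87) than in vehicle VTA (9.79). Against VTA, 6 of 6 tested members were lower in NAC, where 59% of all probe sets passed and 28.8% passed as lower. In PFC, 6 of 6 were lower than in VTA, where 65.1% passed and 32.1% passed as lower. Gch1 and Slc6a3 entered these tests through their VTA arrays, since their NAC and PFC means alone lay below the filter, and Slc18a2 did not enter them. Counts of members are therefore not read further, and the differences are given gene by gene. The share of all probe sets whose regions do not overlap was not counted. A lack of overlap between regions therefore describes the arrays of that gene or list only.

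Th encodes tyrosine hydroxylase, which limits the rate of dopamine synthesis (chr7:142892779-142899995). It was at 7.00, 6.60, 7.13, 6.86 and 7.44 in the 5 vehicle NAC arrays and at 10.72, 9.91, 9.60, 8.59 and 9.04 in the 5 vehicle VTA arrays. Every NAC array was below every VTA array, with a difference of −2.56 (SE 0.40, adjusted p = 1.65e-05), or 16.9% of the VTA level. In PFC the difference from VTA was −2.88 (SE 0.36), and 6 of the 8 PFC arrays lay close together while arrays 3 and 4 stood above them. Th did not differ between PFC and NAC by more than the spread of the arrays (−0.25, SE 0.36, adjusted p = 0.573).

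Ddc, the decarboxylase that turns L-DOPA into dopamine and also serves serotonin synthesis (chr11:11814101-11898144), was at 8.14, 8.01, 8.27, 8.10 and 8.23 in vehicle NAC arrays. In vehicle VTA arrays it was at 12.25, 11.09, 11.02, 9.91 and 10.55. The groups did not overlap, and the difference was −2.81 (SE 0.26, adjusted p = 2.13e-08). Ddc also differed between the other regions. It was at 7.51 ± 0.16 in PFC and 8.31 ± 0.093 in NAC after quantile normalization (SD, n = 8 and 5), a difference of −0.80 (SE 0.23, adjusted p = 0.00542). By the main probe sets it was the 1 member of 6 tested to pass in that comparison, in which 58.2% of probe sets passed. From the deposited values, where PFC lies higher as a whole, the same difference was −0.41 (adjusted p = 0.113), so the call rests on the normalization.

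Gch1 (GTP cyclohydrolase, chr14:47153895-47189413) makes the first step towards tetrahydrobiopterin, the cofactor that Th needs. Its main probe set was at 5.43 to 5.74 in vehicle NAC arrays and 6.59 to 9.09 in vehicle VTA arrays. The groups did not overlap, and the difference was −2.18 (SE 0.29, adjusted p = 3.07e-06). PFC was lower than VTA by a similar −2.07 (SE 0.26). PFC and NAC did not differ beyond their spread (0.15, SE 0.26, adjusted p = 0.654).

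The transporters had low values outside VTA, below the filter and not shown to be above background, so the sizes of their differences are not ranked against those of other members. Slc6a3, the dopamine transporter that takes dopamine back into the neuron and that modafinil binds (chr13:73536128-73578672), was at 5.57 to 5.93 in vehicle NAC arrays. It was at 12.43, 11.14, 11.07, 9.71 and 10.67 in vehicle VTA arrays. NAC differed from VTA by −5.25 (SE 0.32, adjusted p = 5.13e-11) and PFC by −5.05 (SE 0.28). Slc18a2, the vesicular monoamine transporter (chr19:59260878-59296012), was at 3.90 to 4.57 in vehicle NAC arrays and at 11.60, 10.33, 10.16, 8.96 and 9.55 in vehicle VTA arrays. With no filter its differences from VTA were −5.87 in NAC (SE 0.35, adjusted p = 3.31e-11) and −5.49 in PFC (SE 0.33). Between PFC and NAC the values were 0.25 for Slc6a3 (SE 0.28) and 0.41 for Slc18a2 (SE 0.33), neither past the test, and from the deposited values Slc6a3 gave 0.64 (adjusted p = 0.0435).

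The monoamine oxidases, which break down dopamine, noradrenaline and serotonin, showed smaller steps by their main probe sets. Maoa (chrX:16619698-16687812) was at 9.02 ± 0.045 in vehicle NAC and 9.41 ± 0.13 in vehicle VTA (SD, n = 5 each), a difference of −0.39 (SE 0.063, adjusted p = 3.02e-05). Its second probe set gave −0.79 (SE 0.12), so the probe sets differ in size and not in direction. Maob (chrX:16709281-16817366) was at 9.11 ± 0.13 in vehicle NAC and 9.45 ± 0.20 in vehicle VTA, a difference of −0.35 (SE 0.089, adjusted p = 0.00242). After quantile normalization PFC was lower than VTA by −0.30 for Maoa (SE 0.056) and −0.39 for Maob (SE 0.085). From the deposited values the PFC differences were 0.11 and 0.036, so for these probe sets the direction depends on the normalization. The second Maoa probe set was lower in PFC than in VTA under either scale, by −1.03 after normalization (SE 0.10, adjusted p = 3.45e-08), and at 8.69 in vehicle PFC and 9.29 in vehicle VTA as deposited. Between PFC and NAC the values were 0.076 for Maoa (SE 0.056) and −0.038 for Maob (SE 0.085), neither past the test. There the second Maoa probe set pointed the other way and passed (−0.26, SE 0.10, adjusted p = 0.0344). From the deposited values Maoa was higher in PFC than in NAC by 0.50 (adjusted p = 1.38e-07) and Maob by 0.38 (adjusted p = 0.000197), so neither direction is settled.

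**Figure D1:**
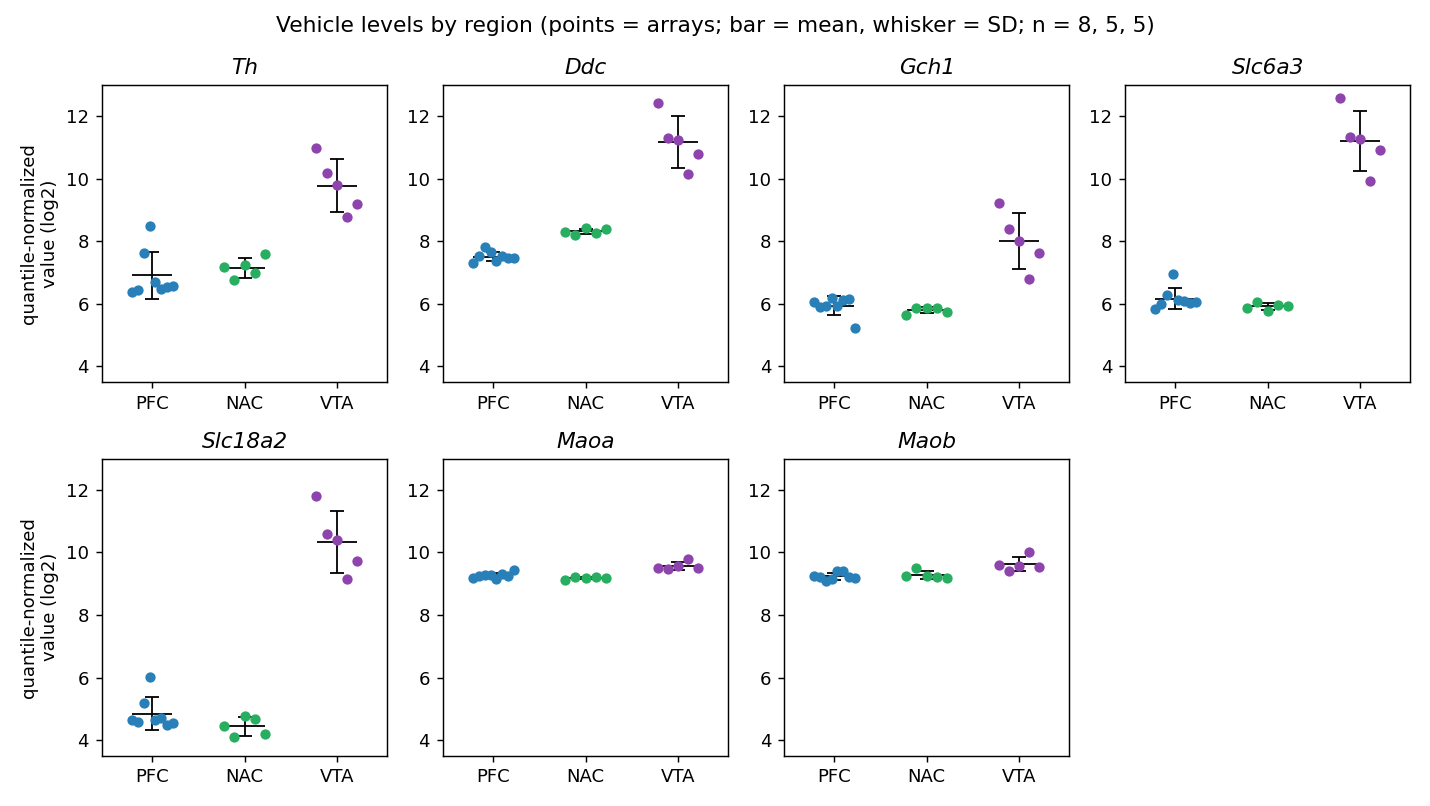
Levels of the 7 member genes in vehicle mice, as log2 values after quantile normalization of all arrays (vertical axis), for PFC (8 arrays), NAC (5) and VTA (5). Each point is an array, the bar is the mean and the whisker the SD. The VTA arrays of Th, Ddc, Gch1, Slc6a3, Slc18a2 and Maoa stand above every PFC and NAC array, those of Maoa by the narrowest margin, and those of Maob overlap the other regions. The share of all probe sets separated in this way was not counted.

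Within the VTA vehicle group itself, the synthesis and transport genes spread far more than most genes. The SD over 5 vehicle arrays was 0.82 for Th, 0.86 for Ddc, 0.92 for Gch1, 0.98 for Slc6a3 and 0.99 for Slc18a2, where the median SD of all tested probe sets was 0.119. These lay between the 99.7th and the 99.9th percentile of all SDs. Between the lowest and the highest vehicle array the linear level differed 4.39-fold for Th and 6.59-fold for Slc6a3. Vehicle array 1 was highest and vehicle array 4 lowest for each of the 5 genes. Maoa had an SD of 0.13 and Maob of 0.20 over the same arrays, and array 4, lowest for the others, was highest for both oxidases. In modafinil mice the SD was 1.07 for Th, 0.72 for Ddc, 0.80 for Gch1, 1.12 for Slc6a3 and 1.01 for Slc18a2, above the vehicle SD for Th, Slc6a3 and Slc18a2 and below it for Ddc and Gch1.

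After modafinil, 6 of the 7 genes had lower values in VTA, as had 63.8% of all tested probe sets. For the 5 synthesis and transport genes the log2 differences were −1.84 to −1.22, and none of the 7 passed the test, where 0.259% of all probe sets passed and 0.0703% passed as lower. The values below give each array, with modafinil and vehicle arrays numbered as in the labels. Array numbers name samples and do not pair modafinil with vehicle mice.

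Th was at 6.74, 8.22, 8.21, 7.55 and 9.65 in modafinil VTA arrays 1 to 5. In vehicle VTA arrays 1 to 5 it was at 10.72, 9.91, 9.60, 8.59 and 9.04. Modafinil arrays 1 to 4 lay below the lowest vehicle array, and modafinil array 5 lay within the vehicle range, above vehicle arrays 3, 4 and 5. The share of all tested probe sets arranged in this way was not counted. The arrangement therefore describes only the genes and lists for which it is given. The difference was −1.50 (SE 0.49, unadjusted p = 0.00942, adjusted p = 0.131, limma), which did not pass the test.

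The same arrangement was found for the next enzyme of the pathway. Ddc was at 9.30, 9.53, 9.32, 9.56 and 11.01 in modafinil VTA arrays and at 12.25, 11.09, 11.02, 9.91 and 10.55 in vehicle VTA arrays. Again modafinil arrays 1 to 4 lay below the lowest vehicle array and array 5 within the vehicle range, with a difference of −1.22 (SE 0.41, adjusted p = 0.137). Its second, dimmer probe set was at 4.19, 4.58, 3.96, 4.96 and 4.99 in modafinil arrays and at 6.13, 5.35, 5.44, 5.23 and 5.05 in vehicle arrays. There the groups did not overlap, as was so for 5.74% of tested probe sets, 3.93% with modafinil lower. That probe set lay below the filter, and with no filter its difference was −0.90 (SE 0.23, adjusted p = 0.117).

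For Gch1 the main probe set, whose name carries the suffix for probe sets that read several transcripts, was at 5.66, 5.67, 6.16, 6.02 and 7.59 in modafinil VTA arrays. It was at 9.09, 8.15, 7.84, 6.59 and 7.39 in vehicle VTA arrays. Modafinil array 5 was above vehicle arrays 4 and 5, and the other modafinil arrays were below every vehicle array. The difference was −1.59 (SE 0.44, adjusted p = 0.0918). The second probe set of Gch1 gave 6.33, 6.36, 6.29, 6.16 and 7.36 in modafinil arrays and 8.66, 8.05, 7.54, 6.21 and 7.15 in vehicle arrays. It overlapped more, with 1 modafinil array below the lowest vehicle array, and differed by −1.02 (SE 0.38, adjusted p = 0.164).

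Among the transporters, Slc6a3 was at 8.08, 9.06, 9.30, 8.42 and 10.97 in modafinil VTA arrays. In vehicle VTA arrays it was at 12.43, 11.14, 11.07, 9.71 and 10.67. Modafinil arrays 1 to 4 lay below every vehicle array, and array 5 lay within the vehicle range. The difference of −1.84 (SE 0.54, adjusted p = 0.103) was the widest of the 7 members and corresponds to 27.9% of the vehicle level. Slc18a2 was at 7.40, 8.40, 8.80, 8.12 and 10.12 in modafinil VTA arrays and at 11.60, 10.33, 10.16, 8.96 and 9.55 in vehicle VTA arrays. It showed the same 4 low arrays and the same overlap of array 5, with a difference of −1.55 (SE 0.51, adjusted p = 0.133).

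The breakdown enzymes did not share this arrangement. Maoa was at 9.27, 9.24, 9.49, 9.32 and 9.34 in modafinil VTA arrays and at 9.39, 9.28, 9.42, 9.62 and 9.35 in vehicle VTA arrays. The groups overlapped over most of their range, with a difference of −0.08 (SE 0.075, adjusted p = 0.547). Its second probe set was at 9.08 to 9.16 in modafinil arrays and 8.99 to 9.62 in vehicle arrays, and differed by −0.17 (SE 0.11, adjusted p = 0.393). Maob was at 9.48, 9.46, 9.35, 9.61 and 9.48 in modafinil VTA arrays and at 9.46, 9.22, 9.41, 9.78 and 9.40 in vehicle VTA arrays. Every modafinil array lay within the vehicle range, and the difference was 0.02 (SE 0.093, adjusted p = 0.915).

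**Figure D2:**
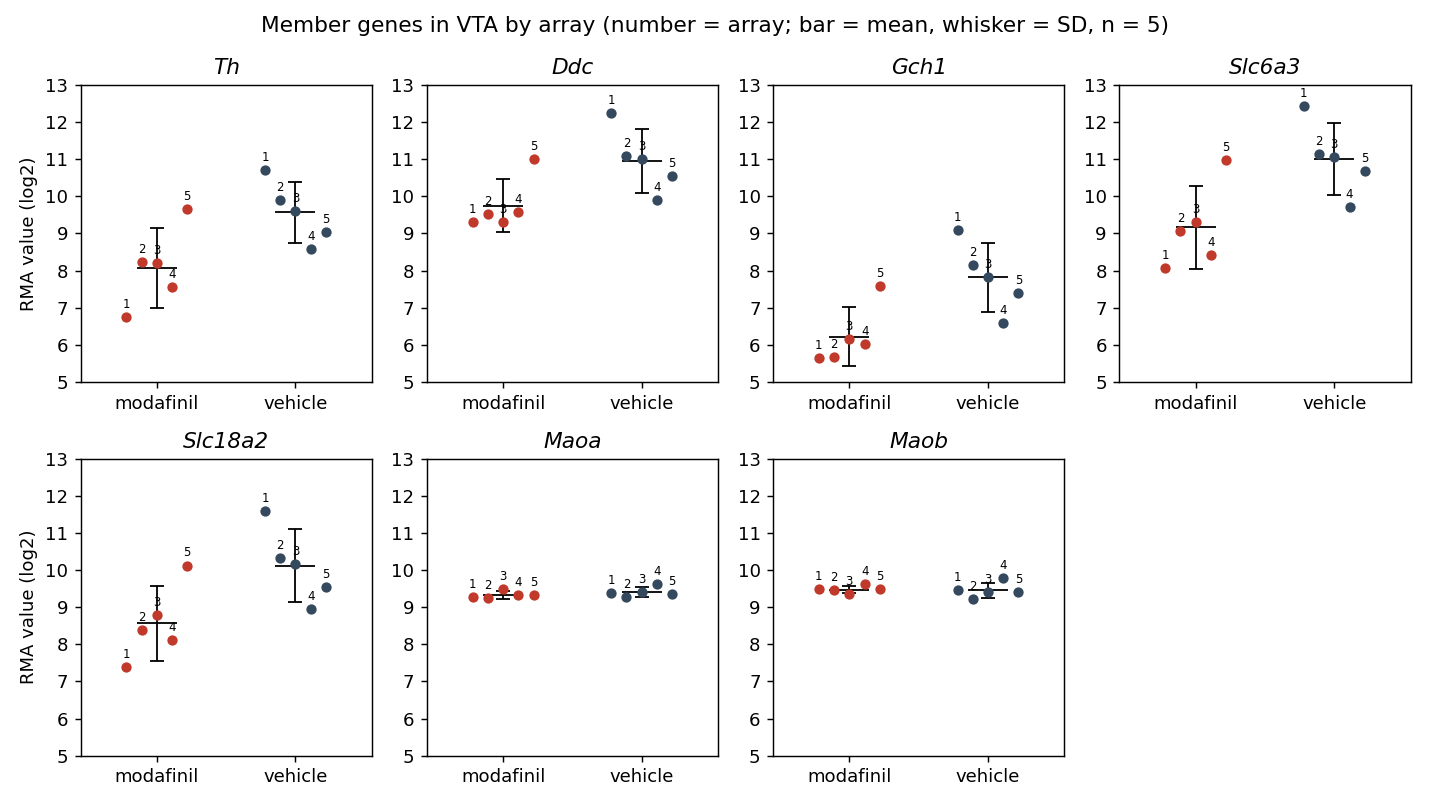
Log2 RMA values (vertical axis) of the 7 member genes in VTA, modafinil arrays to the left and vehicle arrays to the right, each point with its array number, the bar the mean and the whisker the SD (n = 5 each). For Th, Ddc, Gch1, Slc6a3 and Slc18a2, modafinil arrays 1 to 4 lie below every vehicle array and modafinil array 5 lies within the vehicle range, and for Maoa and Maob the groups overlap. The share of all probe sets arranged like the first 5 genes was not counted.

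Over all tested probe sets in VTA the median difference was −0.047, and 5695 had an unadjusted p below 0.05. When all 36 arrays shared 1 estimate of the spread, 3 of 5 tested members passed, namely Th (adjusted p = 0.0243), Ddc (0.00775) and Slc6a3 (0.00177), with 940 probe sets passing in all. That estimate takes in NAC and PFC arrays, where Ddc and Slc6a3 spread far less. In vehicle arrays the SD of Slc6a3 was 0.14 in NAC, 0.35 in PFC and 0.98 in VTA, and that of Ddc 0.10, 0.17 and 0.86. For Th it was 0.31 in NAC, 0.79 in PFC and 0.82 in VTA. These 3 passes rest on a spread taken partly from other regions and are not read further. Leaving out each VTA array in turn gave a difference of −1.89 to −1.16 for Th and −2.29 to −1.48 for Slc6a3, and no member passed in any of these fits. Leaving out modafinil array 5 gave the widest differences for these genes.

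Marker lists were read in the same arrays. Of 10 tested genes of the dopamine neuron identity list, 0 passed and 10 had lower values, with a median of −0.74. Its nicotinic receptor subunit gene Chrnb3 differed by −0.73 (SE 0.19, adjusted p = 0.0804), the growth factor receptor gene Ret by −1.29 (SE 0.35, adjusted p = 0.0875) and the synuclein gene Sncg by −0.85 (SE 0.17, adjusted p = 0.0523). Pitx3 differed by −0.11 (SE 0.10). En1 and Lmx1a lay below the filter, En1 at 3.07 in modafinil VTA and 4.41 in vehicle VTA, and Lmx1a at 5.48 and 5.33. Averaged per array over the 12 listed genes that have a probe set, the identity list stood at 6.46, 6.75, 6.89, 6.79 and 7.44 in modafinil VTA arrays and 8.27, 7.66, 7.59, 7.28 and 7.38 in vehicle VTA arrays. Modafinil arrays 1 to 4 were below every vehicle array and array 5 was not, as for Th, an arrangement whose share among all probe sets was not counted. Thalamic neuron markers had higher values for 5 of 5 genes, with a median of 1.33 and 0 passing. Rora, a nuclear receptor gene, differed by 1.33 (SE 0.25, adjusted p = 0.0514), the kinase gene Prkcd by 2.16 (SE 0.43, adjusted p = 0.0523) and Synpo2 by 1.84 (SE 0.45, adjusted p = 0.074). Averaged per array, the thalamic list stood at 10.82, 9.68, 9.97, 9.75 and 9.72 in modafinil VTA arrays and 8.41, 8.08, 8.74, 9.03 and 9.29 in vehicle VTA arrays. These list means did not overlap between the groups. Of single probe sets tested in VTA, 5.74% did not overlap, and no such share was counted for list means. Modafinil array 1, lowest for the 5 synthesis and transport genes, was highest for the thalamic list.

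Tested members of the other cell type lists, none of them past the test, were split as follows. Genes of all neurons were higher in 5 of 5 (median 0.17), and oligodendrocyte genes lower in 5 of 5 (median −0.096). Astrocyte genes were lower in 4 of 6, microglial genes higher in 4 of 5, vessel genes lower in 3 of 4 and striatal genes lower in 3 of 4. No cortical gene entered the test. Of the noradrenergic markers, Dbh and Slc6a2 entered the test with values of 0.02 and 0.21. Serotonergic markers lay below the filter, with Tph2 at 3.24 in modafinil VTA and 3.58 in vehicle VTA, and Slc6a4 at 5.44 in modafinil VTA and 5.28 in vehicle VTA. The part of any of these lists in the members' differences was not tested.

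Set against the identity list within each array, Slc6a3 stood above the list's mean level by 2.30 ± 0.78 in modafinil VTA and by 3.37 ± 0.62 in vehicle VTA (SD, n = 5 each). Ddc stood above it by 2.88 ± 0.42 in modafinil VTA and by 3.33 ± 0.49 in vehicle VTA. The ranges of the groups overlapped for both genes. Within the vehicle arrays alone the Slc6a3 margin ran from 2.44 in array 4 to 4.17 in array 1. The list's mean varied less than Slc6a3 itself, with an SD of 0.39 against 0.98 in vehicle VTA. The margin thus moved with the level of the gene, and whether Slc6a3 fell beyond the list was not tested. Maoa stood above the list by 2.47 ± 0.34 in modafinil VTA and 1.78 ± 0.45 in vehicle VTA, again with overlapping ranges. Maoa itself differed by −0.08 (SE 0.075), so its wider margin reflects the lower list.

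**Figure D3:**
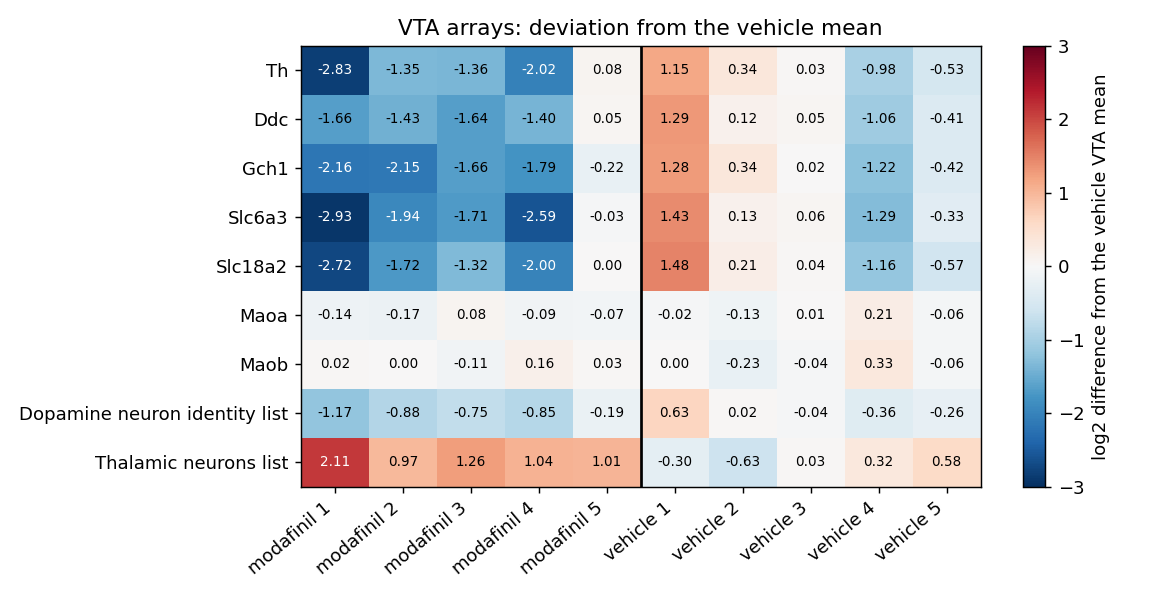
Log2 difference of each VTA array from the mean of the vehicle VTA arrays, for the 7 members and for the mean levels of the dopamine neuron identity and thalamic lists, with modafinil arrays to the left of the line and vehicle arrays to the right (colour scale from −3 to 3, values printed in the cells). The first 5 rows share their low arrays (modafinil 1 to 4 and vehicle 4) and their high one (vehicle 1) with the identity list, and the thalamic list is high in all 5 modafinil arrays.

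The genes that followed Th most closely across the 10 VTA arrays were found by the mean absolute difference per array after centring each gene on its own mean. Over the 12540 genes compared, the median distance from Th was 0.945. Among the members Slc18a2 was nearest at 0.132, then Slc6a3 at 0.232, Gch1 at 0.287 and Ddc at 0.303, while Maoa at 0.978 and Maob at 1.03 were about as far as the median gene. The nearest genes outside the members were the nicotinic receptor subunit gene Chrna6 (0.209), Ret (0.279), the homeobox gene En2 (0.363), the dopamine receptor gene Drd2 (0.461) and the forkhead gene Foxa2 (0.490). Then came Fam167a (0.532), the neurotensin receptor gene Ntsr1 (0.552) and Kank4 (0.592). This likeness is a description over arrays that include the treatment difference, and Chrna6, Ret, En2 and Foxa2 are also on the identity list. For Maob, which barely varied, the 8 nearest genes lay within 0.0442 to 0.0594, with Nsg2 the nearest, where the median distance from Maob was 0.159.

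Other genes of the pathway had smaller differences in VTA. Of the tetrahydrobiopterin genes beside Gch1, 5 of 5 tested had lower values and 0 passed, with a median of −0.15. Pcbd2, a dehydratase that recycles the cofactor, had a value of −0.18 (SE 0.069, adjusted p = 0.177), its relative Pcbd1 −0.16 (SE 0.066, adjusted p = 0.207) and the reductase gene Qdpr −0.14 (SE 0.064, adjusted p = 0.228). Of the breakdown genes beside the oxidases, 3 of 3 tested had lower values and 0 passed. Aldh1a1, an aldehyde dehydrogenase that clears the dopamine aldehyde and is made in a set of dopamine neurons, differed by −0.47 (SE 0.20, adjusted p = 0.220). Of the dopamine receptor genes, Drd2, which is also the autoreceptor of dopamine neurons, differed by −0.90 (SE 0.28, adjusted p = 0.119) and Drd1 by −0.39 (SE 0.16, adjusted p = 0.199). Other monoamine enzymes and transporters were higher in 3 and lower in 2 of 5 tested, with a median of 0.02 and 0 passing.

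In NAC, where the axons end, none of 4 tested members passed, and 0% of all probe sets passed. Th was at 7.22, 7.31, 6.64, 6.25 and 6.81 in modafinil NAC arrays and at 7.00, 6.60, 7.13, 6.86 and 7.44 in vehicle NAC arrays. The groups overlapped, and the difference was −0.16 (SE 0.20). Ddc was at 7.98, 7.94, 8.16, 7.53 and 8.19 in modafinil NAC arrays and at 8.14, 8.01, 8.27, 8.10 and 8.23 in vehicle NAC arrays. Modafinil arrays 1, 2 and 4 lay below the lowest vehicle array, with a difference of −0.19 (SE 0.12). Maoa differed by 0.01 (SE 0.076) and Maob by −0.08 (SE 0.087), and the adjusted p was 1.0 for each of the 4. Below the filter, and read with none, Gch1 differed by 0.15 (SE 0.12), Slc6a3 by −0.10 (SE 0.11) and Slc18a2 by −0.20 (SE 0.16). The cortical neuron list ranged from 4.90 to 9.33 over the NAC arrays, so the punches differed in how much cortical message they held, and its part in these values was not tested.

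In PFC none of 4 tested members passed, where 0.0518% of all probe sets passed. Th had its lowest, median and highest value at 6.52, 6.65 and 6.86 in the 8 modafinil PFC arrays, against 6.60, 6.78 and 8.84 in the 8 vehicle PFC arrays. Vehicle arrays 3 and 4, at 7.85 and 8.84, stood above the other vehicle arrays, which lay between 6.60 and 6.95, and 4 of 8 modafinil arrays lay below every vehicle array. The difference was −0.46 (SE 0.25, adjusted p = 0.462), and without vehicle arrays 3 and 4 it was −0.06 (SE 0.069, adjusted p = 0.732). These 2 arrays also had the highest astrocyte level (11.09 and 11.23, where the other vehicle PFC arrays were at 10.09 to 10.70) and the lowest cortical neuron level (9.57 and 9.21, against 9.79 to 9.97). The identity list was at 6.00 in each of them, within the range of 5.90 to 6.03 of the vehicle PFC arrays. The part of these markers in the Th values was not tested.

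Slc18a2 followed Th in those arrays, at 5.40 and 6.21 in vehicle PFC arrays 3 and 4, where the other vehicle PFC arrays were at 4.76 to 5.00 and the modafinil PFC arrays at 4.23 to 5.19. With no filter its difference was −0.43 (SE 0.18, unadjusted p = 0.0282, adjusted p = 0.422). Slc6a3 was at 7.22 in vehicle array 4 and at 6.05 to 6.48 in the others, with modafinil arrays at 5.95 to 6.89 and a difference of −0.10 (SE 0.15). The highest modafinil values of Ddc (8.42) and Slc6a3 (6.89) were those of modafinil PFC array 3, whose striatal list was at 10.36 where no other modafinil PFC array exceeded 8.54. The part of the striatal message in these values was not tested. Ddc differed by 0.05 (SE 0.11), Maoa by 0.0028 (SE 0.047) and Maob by 0.02 (SE 0.050). Gch1 differed by −0.07 (SE 0.13) by its main probe set and by 0.16 (SE 0.068, adjusted p = 0.419) by the other, with no filter.

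**Figure D4:**
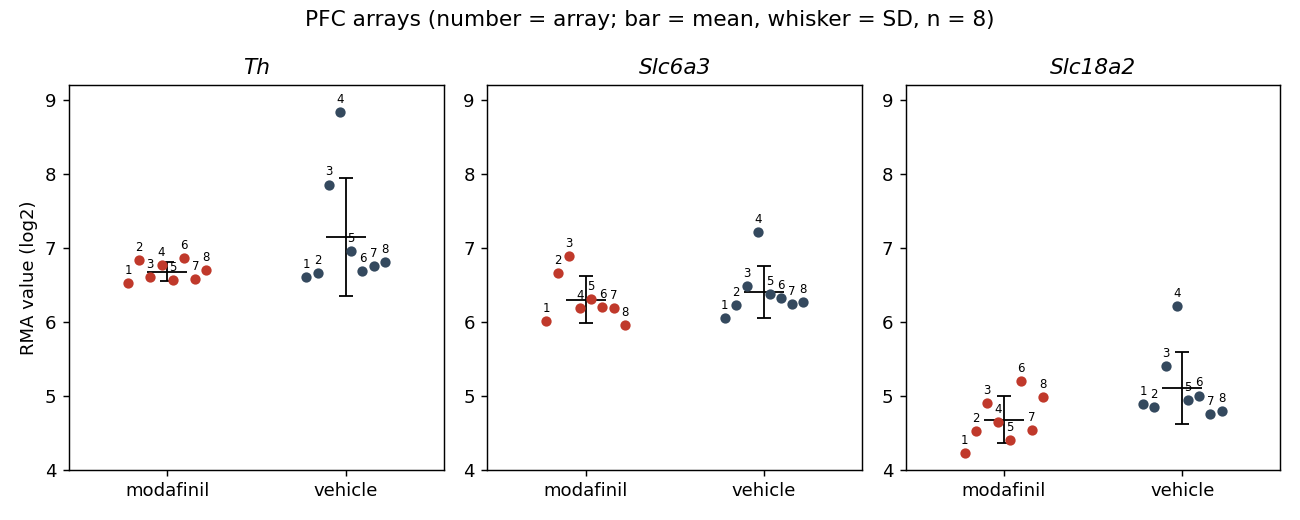
Log2 RMA values (vertical axis) of Th, Slc6a3 and Slc18a2 in PFC, modafinil arrays to the left and vehicle arrays to the right, each point with its array number, the bar the mean and the whisker the SD (n = 8 each). Vehicle arrays 3 and 4 stand above the rest for Th and Slc18a2, and vehicle array 4 for Slc6a3.

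Across the 3 regions together none of 5 tested members passed, where 0.84% of all probe sets passed. The modafinil difference was −0.67 for Th (SE 0.22, adjusted p = 0.127), −0.58 for Slc6a3 (SE 0.22, adjusted p = 0.187) and −0.37 for Ddc (SE 0.16, adjusted p = 0.257). Maoa and Maob had −0.02 (SE 0.034) and −0.01 (SE 0.041). Without the filter Slc18a2 had −0.68 (SE 0.20, adjusted p = 0.124) and Gch1 −0.43 (SE 0.19).

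The change in VTA was then set against that in the other regions, each with its own controls. Against PFC, 1 of 5 tested members passed, Slc6a3, where 0.903% of all probe sets passed and 0.167% passed as lower. Its change in VTA was lower than that in PFC by −1.74 (SE 0.45, adjusted p = 0.0485). That SE was below the SE of the VTA difference alone (0.54), since this fit shared 1 estimate of the spread with NAC and PFC arrays. In those arrays Slc6a3 varied less than in VTA, so the call rests on that shared spread. Slc6a3 entered this fit through its VTA arrays, and its PFC values lay below the filter of the PFC comparison, so the contrast largely restates the VTA difference already given. The adjusted p was 0.0595 with array weights, 0.072 with a robust fit and 0.0627 with no filter, and the call held in 6 of the 36 fits that left out 1 array. Those 6 were the fits without vehicle VTA array 4 or 5, modafinil VTA array 5, modafinil NAC array 2, vehicle PFC array 4 or modafinil PFC array 8. Ddc had −1.27 (SE 0.34, adjusted p = 0.0635) and Th −1.03 (SE 0.49, adjusted p = 0.393). Gch1, below the filter of this fit, had −1.52 (SE 0.38, adjusted p = 0.0477) with none, and Slc18a2 −1.13 (SE 0.45, adjusted p = 0.349). For Gch1 too the SE was below that of its VTA difference alone (0.44). For Maoa and Maob the values were −0.083 (SE 0.084) and 0.0055 (SE 0.10).

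Against NAC none of 5 tested members passed, where 0.274% of all probe sets passed. The Slc6a3 difference was −1.74 (SE 0.50, adjusted p = 0.124), and it passed without vehicle VTA array 4 (−2.07) or without modafinil VTA array 5 (−2.20). Th had −1.34 (SE 0.55, adjusted p = 0.338) and Ddc −1.03 (SE 0.38, adjusted p = 0.273). The comparisons of VTA with PFC and with NAC share the VTA arrays.

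**Figure D5:**
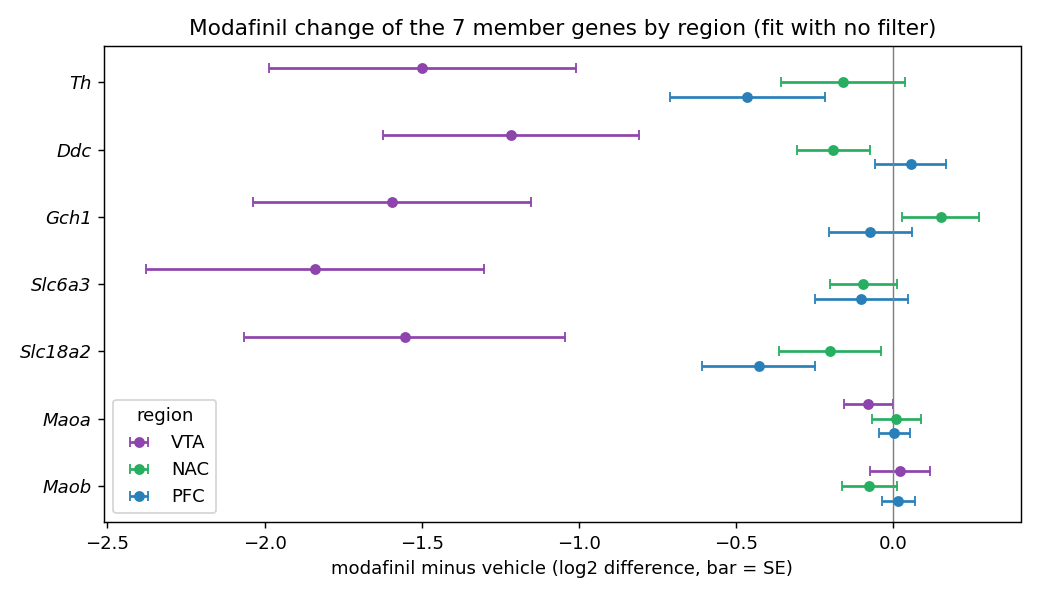
Modafinil minus vehicle difference on the log2 scale (horizontal axis, bar = SE) for the 7 members in VTA, NAC and PFC, from fits with no filter so that every member has a value. The VTA values of Th, Ddc, Gch1, Slc6a3 and Slc18a2 lie between −1.84 and −1.22 with wide bars, and every NAC and PFC value lies between −0.46 and 0.15.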

How the data were processed

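Expression on 36 Affymetrix whole-genome mouse arrays was used as the authors deposited it, as log2 values per probe set. Per the submitters' processing notes these were made with RMA, whose version and settings are not given in the sources used here. Raw intensities, detection calls, scan dates and behaviour were not analysed here. Of 45101 probe sets 64 were controls and 34945 had 1 gene symbol, and only these were named. No 2 arrays were identical.

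Where a gene had several probe sets, the brightest over all arrays stood for it. Linear models were fitted in R 4.3.3 with limma 3.58.1 (lmFit, eBayes). Modafinil was compared with vehicle within each region from its own arrays, across regions with region as a factor, and between regions as contrasts of 6 group means. Levels were compared over the 18 vehicle arrays. Spread, filter, normalization, array weights, a covariate and single arrays were varied. The scripts were tested on simulated data.

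The named genes were the members, up to 3 genes of each list with the smallest p in VTA, and the 8 nearest to Th and to Maob. Lists covered the cofactor, breakdown, receptor and other monoamine genes and cell type markers. Members and lists were chosen with earlier results of these data known. Same-numbered modafinil and vehicle arrays did not deviate together (1 of 5, 1 of 5 and 1 of 8 correlations above 0.1 in VTA, NAC and PFC), so no block was used in the main fits. Between regions, same-numbered modafinil arrays exceeded 0.1 in 3 of 5 pairs for NAC and PFC and 2 of 5 for VTA and PFC. The other pairs of regions had 0 or 1 of 5. The labels do not say whether such arrays share a mouse, and fits over several regions treat them as separate.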

Additional observations from a re-analysis of the deposited data

Results flagged for a closer look

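In groups of 4 to 10 arrays, an array was picked out where its gap to the nearest other array was large against the range of its group (Dixon's test). This happened in 8 of 60 groups of member values, where chance gives about 1 in 20 of independent groups. These groups are not independent, since genes and probe sets that move together share arrays, so no excess over chance is read from the count. In modafinil VTA, array 5 was picked out as high for Ddc at 11.01 and for both Gch1 probe sets at 7.59 and 7.36. In vehicle PFC, array 4 was picked out as high for Slc6a3 at 7.22 and for Slc18a2 at 6.21, and array 8 as low for Gch1 at 5.48 and as high for Maoa at 9.72. In vehicle NAC, array 2 was picked out as high for Maob at 9.33. Between regions, the modafinil change of Slc6a3 in VTA differed from that in PFC by −1.74 in the test of the difference itself, in a fit that Slc6a3 entered through its VTA arrays, with PFC values below the filter.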

How the results depend on the processing

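The VTA differences of Th, Ddc, Gch1, Slc6a3 and Slc18a2 were negative under every alternative run except the covariate fit (0.37, 0.33, 0.11, 0.24 and 0.48, with Maob at −0.058), whose covariate holds genes near Th over the same arrays, so that treatment and list level cannot be told apart in it. With all 36 arrays in 1 fit, whose spread is shared with NAC and PFC arrays, the count of members passing in VTA became 3. For VTA against PFC it became 0 with the filter at the 60th percentile, where Slc6a3 was not tested, with a trend and robust fit, with array weights and with the replicate number as a block (Slc6a3 adjusted p = 0.0994), and 0 to 2 leaving out 1 array. For no pair of groups did every same-numbered correlation exceed 0.1, and the labels do not pair arrays. The block changed no other count of members passing. For VTA against NAC the count was 0 to 1 leaving out 1 array. For PFC against NAC levels it was 2 with the probe set of largest spread and 3 with deposited values. Over all probe sets, 70 passed in VTA and 0 with no filter, with the block or with the covariate, 241 with a robust fit, 262 after quantile normalization, 291 with the 60th percentile filter, 704 with array weights and 0 to 172 leaving out 1 array.

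Other changes of sign were these. With the probe set of largest spread Maoa was at −0.034 in NAC, −0.027 in PFC and −0.26 for PFC against NAC (adjusted p = 0.0344). With array weights Maoa was at −0.028 in NAC and −0.0011 in PFC, and Maob at 0.0058 across regions and 0.0076 for PFC against NAC. After quantile normalization Maoa and Maob were at 0.025 and 0.043 across regions. With deposited values PFC against VTA gave 0.11 for Maoa and 0.036 for Maob, and PFC against NAC gave 0.13 for Th and 0.38 for Maob (adjusted p = 0.000197). Without vehicle PFC arrays 3 and 4, chosen after seeing the data, Maob was at −0.024 in PFC and 0.0025 for PFC against NAC. Leaving out 1 array gave Maob −0.036 to 0.10 in VTA, −0.0063 to 0.043 in PFC, −0.024 to 0.012 across regions, −0.052 to 0.087 for VTA against PFC and −0.063 to 0.020 for PFC against NAC. It gave Maoa −0.042 to 0.048 in NAC and −0.012 to 0.032 in PFC, and Ddc −0.035 to 0.094 in PFC.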
